A study of Mus musculus with 6 samples.

Results

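Interferon-stimulated genes were described in dendritic cells (DCs) sorted from the mouse thymus. A list of 35 gene symbols was used, which covers the signalling factors and the main antiviral effector families. Of these, 34 had a row in the count tables, which hold 23420 gene symbols, and Ifit3b had none. The 34 genes each had a count in at least 1 of the 6 libraries, and 25 had one in every library. A filter on low counts left 25 for testing among 8141 genes. The other 9 were Ifit1, Ifit2, Ifit3, Ifi205, Cmpk2, Cxcl9, Cxcl10, Slfn5 and Slfn8, and their counts are given without a test. A gene that passes this filter only through the group where it is high had to differ between groups, so counts over the 25 tested genes do not stand for the whole list.

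Interferons are secreted proteins that cells release on sensing foreign or misplaced nucleic acid. Type I interferon binds the receptor formed by Ifnar1 and Ifnar2 and activates the kinases Jak1 and Tyk2. These activate a complex that holds Stat2 and Irf9 and binds the interferon-stimulated response element (ISRE) in the promoters of the responding genes. Interferon gamma acts through Jak1 and Jak2, and its targets carry the interferon gamma activated site (GAS). Plasmacytoid DCs (pDCs) are known for releasing large amounts of type I interferon after viral sensing.

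The 6 libraries formed 3 groups of 2, from wild type mice. YG+ pDCs (CD11c low, B220+) carried yellow-green microspheres that had been injected into subcutaneous tumours of MC38, a mouse colon carcinoma line, 12 days after the tumour cells. These cells were sorted 2 days after that injection. PBS pDCs (the same CD11c and B220 gate) and PBS Sirpa+ DCs (CD11c high, Sirpa+) came from mice labelled PBS at 2 weeks. The labels give neither the age of the mice nor whether the PBS mice bore tumours. The microspheres, the gate on them and, if the PBS mice bore none, the tumour differ between YG+ pDCs and PBS pDCs, and these cannot be told apart. Other cells in the sorts may also differ between these groups, and their markers are given with the marker lists below. The labels do not state that replicates are separate animals, and p-values therefore cover only the spread between these samples, which could be technical.

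Between 177844 and 713966 reads per library lay in genes, and the lowest total was that of PBS pDC replicate 1. The 34 genes held 941 and 643 counts in YG+ pDC replicates 1 and 2, 152 and 567 in those of PBS pDCs, and 427 and 1335 in those of Sirpa+ DCs. Levels are counts per 1000000 (CPM), scaled to the library sizes of the fit. A count of 0 allows up to 3 counts, or 4.21 to 19.1 CPM depending on the library. Between 19058505 and 22777061 reads per library lay in no gene, and only 0.842% to 3.36% of the uniquely aligned reads lay in genes. Tsix, the antisense partner of Xist, was at 2.70 to 20.5 times the count of Xist, and no source used here gives the strand setting of the counting. Whether the counts come from the strand of each gene was not tested. All levels and fold changes below carry this limit. Opposite-strand exons of another gene covered 0.954% to 8.84% of the exon length of 6 listed genes (Gbp2, Oasl1, Dhx58, Usp18, Cxcl10 and Slfn5) and none of the other 28. Such exons occurred at 24.4% of all symbols matched to the annotation.

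The ISRE was searched for as GAAA, any 2 bases and GAAA again on both strands of the 250 bases before the start of each gene, in RefSeq promoters on GRCm38.p6. A window was found by symbol for 25 of the 35 genes, and 15 of these 25 (60%) held the motif. Of 27025 genes with a window, 3.46% held it. The GAS was searched for as TTCNNNGAA, which reads the same on both strands, and was in 3 of the 25 genes (12%) and 8.13% of all genes. The genes were listed as known interferon targets, and nothing was tested from these shares. The promoters below belong to the 4 genes that held an ISRE match and were lower in PBS pDCs than in Sirpa+ DCs. No window was found for Oas2 and Ifi204, which were also lower, so they were not searched. Capitals mark the matches.
Isg15 is on the minus strand, with the window at chr4:156200819-156201068, Rsad2 on the minus strand at chr12:26456453-26456702, Oas1a on the minus strand at chr5:120907526-120907775 and Oas3 on the minus strand at chr5:120777660-120777909.
Isg15: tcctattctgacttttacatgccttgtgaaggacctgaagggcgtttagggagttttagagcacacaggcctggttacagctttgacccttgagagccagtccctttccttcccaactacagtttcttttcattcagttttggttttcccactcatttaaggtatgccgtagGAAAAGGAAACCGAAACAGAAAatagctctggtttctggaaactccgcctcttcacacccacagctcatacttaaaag
Rsad2: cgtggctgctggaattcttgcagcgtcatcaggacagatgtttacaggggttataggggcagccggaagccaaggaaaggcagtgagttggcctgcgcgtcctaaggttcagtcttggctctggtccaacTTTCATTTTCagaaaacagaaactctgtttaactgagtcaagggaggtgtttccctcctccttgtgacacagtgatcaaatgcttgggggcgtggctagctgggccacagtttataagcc
Oas1a: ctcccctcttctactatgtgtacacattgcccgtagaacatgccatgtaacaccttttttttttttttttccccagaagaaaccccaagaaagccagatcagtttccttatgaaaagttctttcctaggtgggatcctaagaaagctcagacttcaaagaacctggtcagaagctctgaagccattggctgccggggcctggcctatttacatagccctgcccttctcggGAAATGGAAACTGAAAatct
Oas3: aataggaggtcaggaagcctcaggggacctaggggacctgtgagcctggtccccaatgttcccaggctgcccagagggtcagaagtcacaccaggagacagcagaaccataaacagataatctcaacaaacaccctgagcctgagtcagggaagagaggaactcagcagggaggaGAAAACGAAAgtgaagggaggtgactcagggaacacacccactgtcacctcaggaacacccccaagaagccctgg
Isg15 held 3 matches that run into each other, with first bases 78, 72 and 66 before the start. Oas1a held a pair that overlap, 20 and 14 bases before the start. Oas3 held 1 match, 75 bases before the start, and Rsad2 held 1 on the other strand, where it reads TTTC, 2 bases and TTTC, 120 bases before the start. A match is a description of these letters and was not measured as a bound site.

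**Figure D1:**
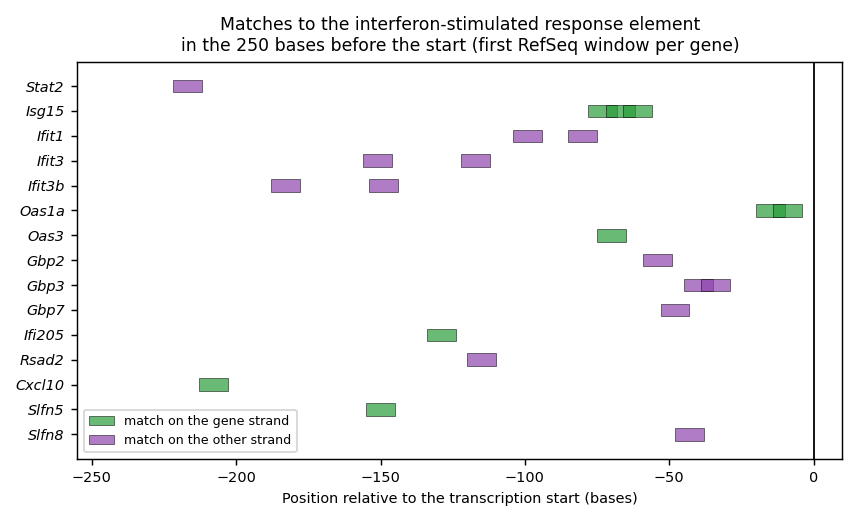
Matches to the ISRE in the first RefSeq promoter window of each of the 15 listed genes that held one. The x axis gives the position in bases before the gene start (line at 0), each row is a gene, each box is the 10 bases of a match, and the colour gives the strand; the 3 boxes of Isg15 begin 78, 72 and 66 bases before the start.

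PBS pDCs were first compared with PBS Sirpa+ DCs, which sets both thymic DC types side by side. Of the 25 tested genes, 6 were lower in PBS pDCs and none was higher. The 6 were Isg15, a ubiquitin-like modifier, Oas1a, Oas2 and Oas3, which make the oligoadenylates that activate RNase L, Ifi204, a DNA sensor, and Rsad2 (viperin), which makes a chain-terminating nucleotide. They were between 3.41-fold (Oas3) and 8.93-fold (Isg15) lower. Among all 8141 genes, 6.89% were lower and 4.54% higher in PBS pDCs, at a Benjamini-Hochberg adjusted p under 0.05 in edgeR's quasi-likelihood test (11.4% in either direction). The median log2 fold change of the 25 genes was -0.99, against 0.08 over all genes tested, and 20 of the 25 estimates were below 0. At an unadjusted p under 0.05, 9 were lower and 1 was higher, against 13% and 11% of all genes. In 14 of the 25, both PBS pDC libraries lay below both Sirpa+ DC libraries, and in 1 they lay above, where 24.2% and 22.9% of all genes did so. In bulk samples, fewer cells of a type and less RNA per cell cannot be told apart.

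These calls rested on few counts and on both Sirpa+ DC libraries. The number of genes lower was 2 with DESeq2 and 2 with limma-voom, where 10.5% and 10% of all genes were called. It was 3 among the 22 listed genes tested in a fit of the 4 libraries compared, where 9.12% were called. It was 1 without Sirpa+ DC replicate 1 and 0 without Sirpa+ DC replicate 2, where 3.35% and 2.47% of all genes were called. The filter was applied anew in each fit, so the medians that follow do not cover the same genes as the 25. The median was -1.61 without Sirpa+ DC replicate 1 (31 listed genes) and -0.31 without Sirpa+ DC replicate 2 (24 listed genes). Without PBS pDC replicate 2 it was -2.25 (31 listed genes). The medians over all genes in these fits were 0.11, 0.17 and -0.17. None of the 25 was higher in any of 15 alternatives, and all 6 genes kept their direction.

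**Figure D2:**
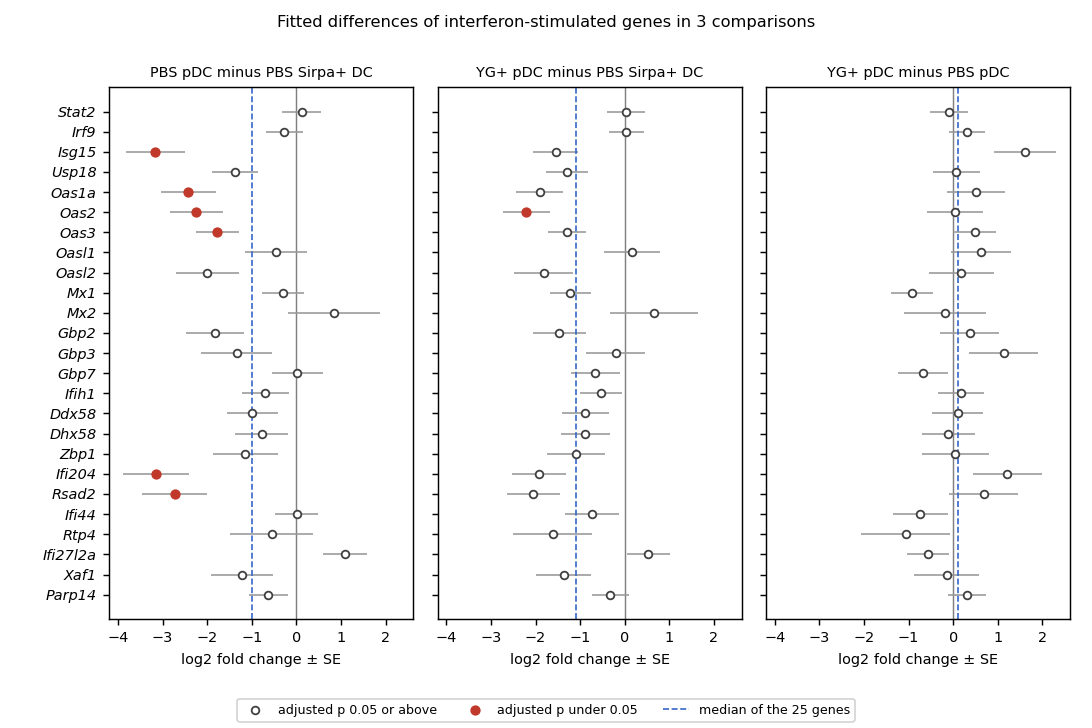
Log2 fold changes of the 25 tested genes in 3 comparisons, 1 per panel, with bars of 1 standard error and a dashed line at the median of the 25. Red points had an adjusted p under 0.05 and number 6, 1 and 0 from left to right, and the medians are -0.99, -1.10 and 0.10.

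Stat2 and Irf9, which carry the signal to the nucleus, were not called in any comparison. Stat2, the subunit found only in the type I and III interferon pathways, was at 149 and 200 CPM in YG+ pDCs, 134 and 229 in PBS pDCs, and 173 and 169 in Sirpa+ DCs. These ranges overlap, and the log2 fold change of PBS pDCs over Sirpa+ DCs was 0.12 ± 0.43 (SE, edgeR quasi-likelihood test, adjusted p = 0.906). Irf9, the DNA-binding subunit of the same complex, was at 104 and 111 CPM in YG+ pDCs, 95.7 and 81.0 in PBS pDCs, and 97.3 and 112 in Sirpa+ DCs. Its log2 fold change between PBS pDCs and Sirpa+ DCs was -0.27 ± 0.42 (adjusted p = 0.761). Differences well above these errors could also be missed at this depth. Oasl2, for example, was not called at -2.00 ± 0.70 between the same groups.

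Isg15 had the largest fold difference of the 25 genes between PBS pDCs and Sirpa+ DCs. The protein is attached to target proteins and removed from them by Usp18, which also dampens signalling at the interferon receptor. Isg15 was at 32.3 and 19.7 CPM in YG+ pDCs, 6.38 and 9.26 in PBS pDCs, and 76.2 and 77.8 in Sirpa+ DCs, from 23, 11, 1, 4, 18 and 39 counts. The 3 groups do not overlap, with PBS pDCs lowest and Sirpa+ DCs highest. The mean was 7.82 ± 2.03 CPM (SD, n = 2) in PBS pDCs and 77.0 ± 1.12 (SD, n = 2) in Sirpa+ DCs. The log2 fold change was -3.16 ± 0.66 (SE, edgeR quasi-likelihood test, adjusted p = 0.0121), or 8.93-fold lower, and ranged from -3.59 to -2.95 over the alternatives. Its adjusted p was 0.0528 without Sirpa+ DC replicate 1 and 0.0842 without Sirpa+ DC replicate 2. Isg15 lies on chromosome 4 (GRCm38, 156199424 to 156200818, minus strand), and no other annotated gene overlaps its exons. Usp18 was at 33.7 and 34.0 CPM in YG+ pDCs, 31.9 and 32.4 in PBS pDCs, and 106 and 65.8 in Sirpa+ DCs. Its pDC libraries all lay below the Sirpa+ DC libraries, with a log2 fold change of PBS pDCs over Sirpa+ DCs of -1.37 ± 0.52 (adjusted p = 0.123).

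The OAS family sense double-stranded RNA. Of its 5 listed genes 3 were called, and all 5 estimates were below 0, with a median log2 fold change of -2.00. Oas1a was at 23.9 and 14.3 CPM in YG+ pDCs, 12.8 and 13.9 in PBS pDCs, and 80.4 and 67.8 in Sirpa+ DCs. Every Sirpa+ DC library lay above every pDC library, and the log2 fold change of PBS pDCs over Sirpa+ DCs was -2.42 ± 0.62 (SE, edgeR quasi-likelihood test, adjusted p = 0.0287). Oas2 was at 25.3 and 12.5 CPM in YG+ pDCs, 19.1 and 18.5 in PBS pDCs, and 102 and 79.7 in Sirpa+ DCs. Both pDC groups overlapped and lay below the Sirpa+ DCs, with a log2 fold change of -2.24 ± 0.59 (adjusted p = 0.0327) for PBS pDCs. Oas3, the longest of the synthetases, was at 66.0 and 51.9 CPM in YG+ pDCs, 31.9 and 48.6 in PBS pDCs, and 114 and 171 in Sirpa+ DCs. The groups do not overlap, and the log2 fold change of PBS pDCs over Sirpa+ DCs was -1.77 ± 0.47 (adjusted p = 0.0338). These genes lie together on chromosome 5 (GRCm38), with Oas2 at 120730333 to 120749853, Oas3 at 120753098 to 120777661 and Oas1a at 120896256 to 120907521, all on the minus strand. Of the 50-base windows in the exons of Oas1a, 57.6% also occur in other genes, among them Oas1g and Oas1b, so its reads may be shared with these copies. The same share was 0 for Oas2 and 0.471% for Oas3. Of these calls, Oas1a was kept in 9, Oas2 in 10 and Oas3 in 8 of 15 alternatives.

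The OAS-like proteins carry ubiquitin-like domains at their ends. Oasl2 was at 46.4 and 53.7 CPM in YG+ pDCs, 6.38 and 67.1 in PBS pDCs, and 84.6 and 259 in Sirpa+ DCs. Libraries of a group differed by more than 3-fold in both PBS groups, and the log2 fold change of PBS pDCs over Sirpa+ DCs was -2.00 ± 0.70 (edgeR quasi-likelihood test, adjusted p = 0.0986). Oasl1, which limits the translation of Irf7, was at 56.2 and 66.2 CPM in YG+ pDCs, 6.38 and 60.2 in PBS pDCs, and 29.6 and 73.8 in Sirpa+ DCs. Its ranges overlap, with a log2 fold change of -0.45 ± 0.70 (adjusted p = 0.759).

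The sensors that detect viral nucleic acid included 1 called gene, Ifi204, a member of the family with pyrin and HIN domains. Ifi204 was at 57.6 and 16.1 CPM in YG+ pDCs, 6.38 and 20.8 in PBS pDCs, and 93.1 and 189 in Sirpa+ DCs, from 41, 9, 1, 9, 22 and 95 counts. The Sirpa+ DC libraries lay above the pDC libraries, which overlapped with each other. The log2 fold change of PBS pDCs over Sirpa+ DCs was -3.14 ± 0.74 (SE, edgeR quasi-likelihood test, adjusted p = 0.0202), or 8.84-fold lower. Over the alternatives it ranged from -4.52, without PBS pDC replicate 2, to -2.49, without Sirpa+ DC replicate 2. The adjusted p was 0.194 without Sirpa+ DC replicate 2 and 0.0672 in limma-voom. Ifi204 lies on chromosome 1 (GRCm38, 173747293 to 173766943, minus strand), and 30.2% of its 50-base exon windows also occur in other genes, such as Ifi211, Mndal and Ifi207. Dhx58, a regulator of the RNA helicase sensors, was at 46.4 and 48.3 CPM in YG+ pDCs, 51.0 and 50.9 in PBS pDCs, and 33.9 and 132 in Sirpa+ DCs. The pDC libraries were close to each other and within the range of the Sirpa+ DCs, with a log2 fold change of PBS pDCs over Sirpa+ DCs of -0.78 ± 0.59 (adjusted p = 0.484). Ddx58 (RIG-I) was at 50.6, 32.2, 19.1 and 50.9 CPM in the 4 pDC libraries and 55.0 and 95.7 in Sirpa+ DCs, and its log2 fold change was -0.99 ± 0.57 (adjusted p = 0.332). Ifih1, the other RNA helicase sensor, and Zbp1, which binds Z-form nucleic acid, had log2 fold changes of -0.70 and -1.15, and neither was called.

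Rsad2 and Cmpk2 are neighbouring genes, and Cmpk2 helps to supply the nucleotide that the Rsad2 enzyme converts. Rsad2 was at 22.5 and 8.95 CPM in YG+ pDCs, 6.38 and 11.6 in PBS pDCs, and 55.0 and 77.8 in Sirpa+ DCs, from 16, 5, 1, 5, 13 and 39 counts. The pDC groups overlapped and lay below the Sirpa+ DCs, with a log2 fold change for PBS pDCs of -2.73 ± 0.72 (SE, edgeR quasi-likelihood test, adjusted p = 0.0317), or 6.64-fold lower. The log2 fold change ranged from -3.41, without PBS pDC replicate 2, to -2.42, without Sirpa+ DC replicate 2. The adjusted p ranged up to 0.258, without Sirpa+ DC replicate 2. Rsad2 lies on chromosome 12 (GRCm38, 26442746 to 26456452, minus strand). Cmpk2, not tested, had 4 and 9 counts in YG+ pDCs, 0 and 3 in PBS pDCs, and 5 and 10 in Sirpa+ DCs.

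The GTPases and the remaining effectors did not include a called gene. Mx1, which blocks viral replication complexes, was at 50.6 and 32.2 CPM in YG+ pDCs, 95.7 and 67.1 in PBS pDCs, and 80.4 and 112 in Sirpa+ DCs. Both PBS groups overlapped, and the log2 fold change between them was -0.30 ± 0.46 (edgeR quasi-likelihood test, adjusted p = 0.757). Gbp2, a guanylate-binding protein that coats pathogen vacuoles, was at 50.6 and 23.3 CPM in YG+ pDCs, 6.38 and 41.7 in PBS pDCs, and 123 and 87.7 in Sirpa+ DCs. Its pDC libraries all lay below the Sirpa+ DC libraries, with a log2 fold change of -1.83 ± 0.65 for PBS pDCs (adjusted p = 0.103). Gbp3, Gbp7 and Mx2 overlapped between PBS pDCs and Sirpa+ DCs, and their log2 fold changes were -1.34, 0.02 and 0.84. Mx2 is marked as a polymorphic pseudogene in the annotation used here. The 5 GTPases had a median log2 fold change of -0.30.

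Ifi27l2a, a small mitochondrial protein, was the 1 gene whose PBS pDC libraries both lay above the Sirpa+ DC libraries. It was at 71.6 and 76.9 CPM in YG+ pDCs, 134 and 92.6 in PBS pDCs, and 29.6 and 67.8 in Sirpa+ DCs. The log2 fold change was 1.10 ± 0.49 (SE, edgeR quasi-likelihood test, unadjusted p = 0.0479, adjusted p = 0.204). Parp14, which attaches ADP-ribose to proteins, was at 147 and 104 CPM in YG+ pDCs, 95.7 and 106 in PBS pDCs, and 127 and 185 in Sirpa+ DCs, with a log2 fold change of -0.63 ± 0.43 between the PBS groups (adjusted p = 0.431). Xaf1, Rtp4 and Ifi44 were not called, with log2 fold changes of -1.22, -0.55 and 0.00. Rtp4 was uneven within PBS pDCs, at 63.8 CPM in PBS pDC replicate 1 and 4.63 in replicate 2.

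The IFIT proteins bind foreign RNA caps, and their genes were among the least counted. Ifit1 had 10 and 7 counts in YG+ pDCs, 0 and 7 in PBS pDCs, and 5 and 17 in Sirpa+ DCs. Ifit2 had 11 and 6, 0 and 4, and 3 and 22 counts in the same order, and Ifit3 had 11 and 3, 1 and 2, and 0 and 30. Summed over the 3 genes, the level was 44.9 and 28.6 CPM in YG+ pDCs, 6.38 and 30.1 in PBS pDCs, and 33.9 and 138 in Sirpa+ DCs. The highest library of the 6 was thus Sirpa+ DC replicate 2, while Sirpa+ DC replicate 1 lay among the pDC libraries. Counts of Ifit3 are uncertain, since 51.2% of its 50-base exon windows also occur in other genes, Ifit3b among them. The chemokines that attract T cells bearing Cxcr3 were also sparse. Cxcl10 had 8 and 4 counts in YG+ pDCs, 0 and 8 in PBS pDCs, and 4 and 19 in Sirpa+ DCs, and Cxcl9 had 0 and 1, 0 and 3, and 1 and 9. Slfn5 had 13 and 6, 1 and 7, and 2 and 23 counts, Ifi205 had 0 and 1, 0 and 0, and 0 and 7, and Slfn8 had 1 count in all. Each of these genes had its highest count in Sirpa+ DC replicate 2, which had 525418 gene counts in all, and no comparison was made from them.

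**Figure D3:**
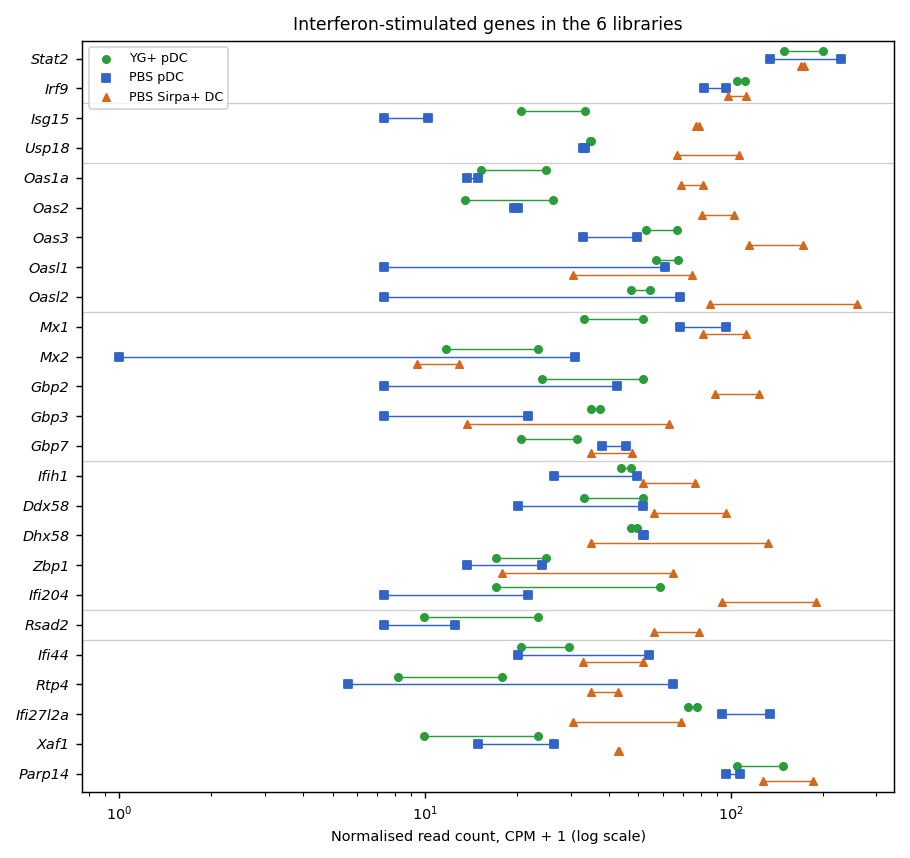
Levels of the 25 tested genes, 1 row per gene in role order, as CPM + 1 on a log axis. Each point is 1 library, a line joins the 2 libraries of a group, and the colour and shape give the group; the Sirpa+ DC points of Isg15, Oas1a, Oas2, Oas3, Ifi204 and Rsad2 all lie to the right of the pDC points.

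Summed over the genes of a role, both Sirpa+ DC libraries lay above all 4 pDC libraries in 5 of 9 roles, namely the ISG15 system, the OAS family, the GTPases, the sensors and the nucleotide enzymes. Apart from the GTPases, these roles hold the genes called above, so their sums restate those calls. No share over all genes is given for such sums, and nothing was read from the number of roles. The ISG15 system (Isg15 and Usp18) summed to 66.0 and 53.7 CPM in YG+ pDCs, 38.3 and 41.7 in PBS pDCs, and 182 and 144 in Sirpa+ DCs. The OAS family summed to 218 and 199, 76.5 and 208, and 410 and 652 CPM in that order. The GTPases summed to 180 and 131, 153 and 197, and 271 and 307 CPM, and the sensors to 225 and 157, 115 and 194, and 250 and 570.2 CPM. The signalling factors summed to 253 and 311, 230 and 310, and 271 and 281 CPM, so that the groups overlapped. The effectors without a common family summed to 296 and 236, 344 and 287, and 292 and 417 CPM, which also overlapped. Over the 34 genes, the sum was 1236 ± 121 CPM (SD, n = 2) for YG+ pDCs, 1141 ± 242 for PBS pDCs and 2234 ± 604 for Sirpa+ DCs.

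**Figure D4:**
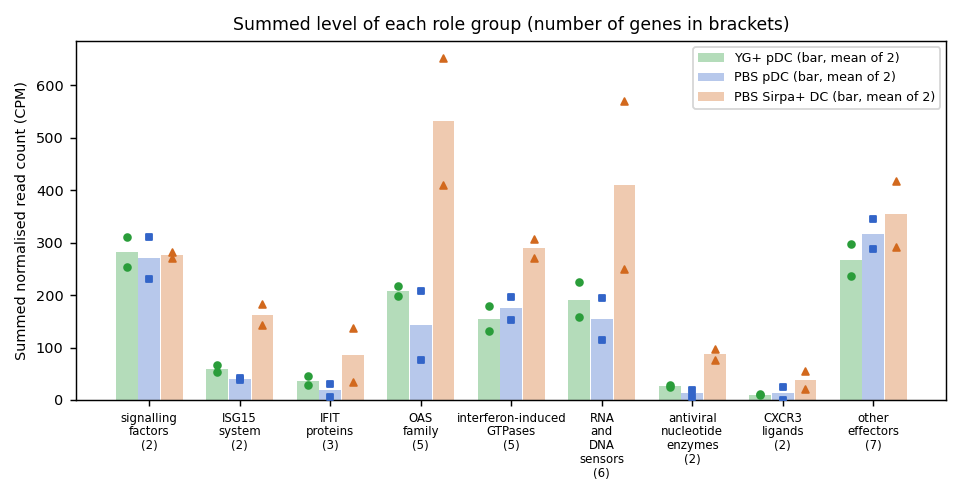
Summed CPM of the 34 listed genes in 9 roles, with the number of genes in brackets. Bars are means of 2 libraries, points are libraries and colours are groups; in 5 roles both Sirpa+ DC points lie above all 4 pDC points, as for the OAS family (410 and 652 against at most 218 CPM).

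Levels of different genes were compared after division by exon length. Ifi27l2a had the highest level per kilobase in every group, at 160.5 CPM per kb for YG+ pDCs, 245 for PBS pDCs and 105 for Sirpa+ DCs. Isg15 ranked 2 of the 34 genes in Sirpa+ DCs, at 102 CPM per kb, and 2 in YG+ pDCs, at 34.4, but 10 in PBS pDCs, at 10.3. Stat2 stayed between 28.9 and 30.6 CPM per kb in the 3 groups. Gbp2 ranked 3 of 34 in Sirpa+ DCs, at 41.8 CPM per kb, and was at 14.7 in YG+ pDCs and 9.5 in PBS pDCs.

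The second comparison set YG+ pDCs against PBS pDCs and asked whether thymic pDCs that carried microspheres differ from those of PBS mice. None of the 25 genes was called in either direction by edgeR's quasi-likelihood test, and 0% of all genes tested were called. At an unadjusted p under 0.05, 1 of the 25 was higher (Isg15) and none was lower, where 4.69% of all genes were higher and 6.72% lower. DESeq2 called none of the 25 and 6.07% of the genes to which it gave an adjusted p, only 2 of the 25 among them. Limma-voom called none of the 25 and 0% of all genes. Without a filter on low counts, none of the 34 was called, and 0.84% of all genes were. The median log2 fold change was 0.10 over the 25 genes and 0.08 over all genes tested. Without PBS pDC replicate 2, the median was 0.84 over the 31 listed genes tested in that fit and 0.28 over all genes tested. The filter was applied anew there, so this median does not cover the same genes as the 25.

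Isg15 had the largest estimate, with a mean of 26.0 ± 8.93 CPM (SD, n = 2) in YG+ pDCs against 7.82 ± 2.03 in PBS pDCs. Its log2 fold change was 1.62 ± 0.69 (SE, edgeR quasi-likelihood test, unadjusted p = 0.0393, adjusted p = 0.410), and the PBS pDC value rests on 5 counts over 2 libraries. Ifi204 (1.21 ± 0.78, adjusted p = 0.589) and Gbp3 (1.13 ± 0.78, adjusted p = 0.618) had the next largest log2 estimates. Oas2 showed 0.04 ± 0.63 and Usp18 0.07 ± 0.52. At the other end, Rtp4 was at -1.07 ± 1.00 and Mx1 at -0.92 ± 0.47 (adjusted p = 0.493). In 6 of the 25 genes (Irf9, Isg15, Usp18, Oas1a, Oas3 and Gbp3), both YG+ pDC libraries lay above both PBS pDC libraries, and in 4 (Mx1, Gbp7, Dhx58 and Ifi27l2a) they lay below. Among all genes tested, 26.5% lay above and 19.3% below. Standard errors ran from 0.41 to 1.00 log2 units, and the missing calls do not show that the groups are alike.

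YG+ pDCs were also compared with PBS Sirpa+ DCs, a comparison that shares the Sirpa+ DC libraries with the first. Oas2 was the 1 gene called, at 18.9 ± 9.02 CPM (SD, n = 2) against 90.7 ± 15.4, with a log2 fold change of -2.21 ± 0.53 (SE, edgeR quasi-likelihood test, adjusted p = 0.0281), or 4.61-fold lower. It was -2.83 without YG+ pDC replicate 1 (adjusted p = 0.0924) and -1.82 without YG+ pDC replicate 2 (adjusted p = 0.388). Among all genes tested, 4.09% were lower and 3.07% higher in YG+ pDCs (7.16% in either direction). The median log2 fold change over the 25 genes was -1.10, against 0.04 over all genes, and 20 of the 25 estimates were below 0. At an unadjusted p under 0.05, 11 were lower and 0 higher, against 12.6% and 10.2% of all genes. In 16 genes both YG+ pDC libraries lay below both Sirpa+ DC libraries, and in 1 they lay above, where 29.1% and 32.8% of all genes did so. For the other genes called in PBS pDCs, the log2 fold changes of YG+ pDCs over Sirpa+ DCs were -1.54 ± 0.50 for Isg15 (adjusted p = 0.0940), -1.91 ± 0.52 for Oas1a (adjusted p = 0.0517), -1.29 ± 0.43 for Oas3 (adjusted p = 0.0969), -1.93 ± 0.61 for Ifi204 (adjusted p = 0.0809) and -2.05 ± 0.59 for Rsad2 (adjusted p = 0.0608). The number of genes called was sensitive to the libraries in the fit. It was 10 in a fit of only the 4 libraries compared (18.7% of all genes called), and 10 without PBS pDC replicate 1 (15.7%) or replicate 2 (15.5%). The 10 genes were the same in these 3 fits, namely Gbp2, Ifi204, Isg15, Mx1, Oas1a, Oas2, Oas3, Oasl2, Rsad2 and Usp18. It was 0 without YG+ pDC replicate 2 (2.01%), Sirpa+ DC replicate 1 (0.731%) or Sirpa+ DC replicate 2 (1.33%). Without YG+ pDC replicate 1, Ifi204 was called in place of Oas2 (3.1% of all genes called).

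Replicates of a group differed in the general level of the listed genes. The median log2 difference of replicate 1 from replicate 2 over the 25 genes was 0.46 for YG+ pDCs, -0.54 for PBS pDCs and -0.45 for Sirpa+ DCs, against -0.02, -0.10 and -0.03 over all genes tested. In Sirpa+ DCs, 17 of the 25 genes were lower in replicate 1, and in PBS pDCs also 17 of 25. The median level of the 25 genes relative to that of all genes was -0.15 and -0.62 log2 units in YG+ pDCs, -1.23 and -0.32 in PBS pDCs, and 0.11 and 0.50 in Sirpa+ DCs. Every Sirpa+ DC library thus lay above every pDC library by this measure, and PBS pDC replicate 1, the library with the fewest gene counts, lay lowest.

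Other genes of the pathway were taken from 5 further lists. Of their 59 tested genes, none was called between YG+ pDCs and PBS pDCs by edgeR's quasi-likelihood test or limma-voom, where 0% of all genes were. DESeq2 gave 27 of them an adjusted p and called none, where it called 6.07% of all genes with an adjusted p. In edgeR, 2 were higher and 1 lower at an unadjusted p under 0.05, against 4.69% and 6.72% of all genes. Leaving out PBS pDC replicate 2 gave calls in this comparison both in these lists (Adar and Herc6) and over all genes. That fit leaves 1 library in PBS pDCs, and no conclusion was drawn from its calls. Between PBS pDCs and Sirpa+ DCs, 12 of the 59 were called, 10 with DESeq2 and 8 with limma-voom, where 11.4%, 10.5% and 10% of all genes were. A fit of the 4 libraries compared called 7 of the 57 it tested, where 9.12% of all genes were called. Fewer were called, here and over all genes, when either Sirpa+ DC library was left out. Between YG+ pDCs and Sirpa+ DCs, 5 of the 59 were called, where 7.16% of all genes were. That number was 21 of 59 in a fit of the 4 libraries compared, where 18.7% of all genes were called. It was higher when a PBS pDC library was left out, and lower when a YG+ pDC or Sirpa+ DC library was. Calls over all genes moved the same way. Of 19 interferon genes in the tables, 14, with Ifnb1 and most alpha interferons among them, had no count in any library. Ifna13 had 5 counts, all in pDC libraries (1 and 2 in YG+ pDCs, 2 and 0 in PBS pDCs). Ifng had 3 counts in PBS pDC replicate 2, and Ifnl2 and Ifnl3 had 3 and 2 in Sirpa+ DC replicate 1. Ifnk was the 1 interferon gene tested, with 61 and 79 counts in YG+ pDCs, 51 and 39 in PBS pDCs, and 31 and 23 in Sirpa+ DCs, and was not called. It lies within Mob3b on the opposite strand, so without the strand setting its reads cannot be told apart from those of Mob3b.

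Among 9 receptor and kinase genes, Jak2, which acts downstream of the interferon gamma receptor and of many cytokine receptors, was lower in PBS pDCs than in Sirpa+ DCs, and no other was called in any comparison. It was at 295 and 209 CPM in YG+ pDCs, 76.5 and 174 in PBS pDCs, and 567 and 678 in Sirpa+ DCs, with a log2 fold change of -2.26 ± 0.49 between the PBS groups (edgeR quasi-likelihood test, adjusted p = 0.0140). It was -3.07 without PBS pDC replicate 2, and the adjusted p was 0.0603 and 0.111 without Sirpa+ DC replicates 1 and 2. Ifnar1, a receptor chain for type I interferon, was at 287 and 349 CPM in PBS pDCs and 123 and 229 in Sirpa+ DCs, and was not called (adjusted p = 0.281). Among 8 transcription factors, Irf8, which pDCs need for their identity, was higher in PBS pDCs, at 1438 ± 338 CPM (SD, n = 2) against 299 ± 51.3, with a log2 fold change of 2.26 ± 0.45 (adjusted p = 0.00942). It was also higher in YG+ pDCs than in Sirpa+ DCs (log2 fold change 2.16 ± 0.45, adjusted p = 0.0155), and no other factor was called. Irf7, which drives alpha interferon genes, was at 173 and 200 CPM in YG+ pDCs, 134 and 243 in PBS pDCs, and 292 and 419 in Sirpa+ DCs, with a log2 fold change of -0.89 between the PBS groups (adjusted p = 0.253). Among 6 feedback regulators, Socs3 was lower in PBS pDCs, at 89.3 and 125 CPM against 343 and 363 (log2 fold change -1.69 ± 0.42, adjusted p = 0.0245), and no other was called.

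A further 60 interferon-stimulated genes were listed, of which 56 had a row and 35 were tested. Between PBS pDCs and Sirpa+ DCs, 7 were lower in pDCs and 2, Pml and Gbp6, were higher, where 6.89% of all genes were lower and 4.54% higher. The median log2 fold change was -0.63. Parp12, an ADP-ribosyltransferase, was at 6.38 and 13.9 CPM in PBS pDCs and 127 and 114 in Sirpa+ DCs (log2 fold change -3.35 ± 0.58, edgeR quasi-likelihood test, adjusted p = 0.00479). Without PBS pDC replicate 2 it was -4.22. Ifitm2, a membrane protein that hinders viral entry, had no count in PBS pDCs and 28 and 47 counts in Sirpa+ DCs, which was at least 20.8-fold higher when 3 counts over the PBS pDC group were taken as its limit (adjusted p = 0.00296). Exons of Gm45717 on the same strand cover 40.9% of Ifitm2. Its relative Ifitm3 was also lower, with a log2 fold change of -2.92 (adjusted p = 0.0274), a call lost in DESeq2 (adjusted p = 0.0696) and limma-voom (adjusted p = 0.0574). Lgals3bp, a secreted glycoprotein, was lower as well, with a log2 fold change of -2.06 (adjusted p = 0.0163). In the opposite direction, Pml, the organiser of nuclear bodies, was higher in PBS pDCs (log2 fold change 2.03 ± 0.46, adjusted p = 0.0169). Gbp6, a guanylate-binding GTPase named after its values were seen, had a log2 fold change of 4.02 (edgeR quasi-likelihood test, adjusted p = 0.0304). This rests on 8 and 22 counts in PBS pDCs and 2 and 0 in Sirpa+ DCs. The log2 fold change ran from 2.58 without Sirpa+ DC replicate 2 to 7.61 without Sirpa+ DC replicate 1. The Gbp6 call was lost in limma-voom (adjusted p = 0.0519), and exons of Gm43302 on the same strand cover 29.0% of Gbp6. In YG+ pDCs against Sirpa+ DCs, 1 gene was higher (Pml, log2 fold change 2.19, adjusted p = 0.0151) and 3 were lower (Parp12, Ifitm2 and Ifitm3), where 3.07% of all genes were higher and 4.09% lower. The median was -0.55, and the Ifitm3 call was lost in DESeq2 (adjusted p = 0.0862).

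The labelled cell types were checked against marker lists, and the levels of other cell types are given because they differ between the same groups. All 10 pDC markers were higher in PBS pDCs than in Sirpa+ DCs, with summed levels of 4416 to 6125 CPM for YG+ pDCs, 6161 to 6370 for PBS pDCs and 757 to 845 for Sirpa+ DCs. The Sirpa+ conventional DC markers summed to 1210 to 1275, 759 to 1064 and 1989 to 2757 CPM, and of 9 such markers 2 (Mgl2 and Csf1r) were lower in PBS pDCs and 1 (Clec10a, log2 fold change 1.95, adjusted p = 0.0231) was higher. Sirpa itself, the sorting marker, was at 198 and 319 CPM in PBS pDCs and 575 and 748 in Sirpa+ DCs, and was not called (adjusted p = 0.0754). Clec4a4 had 1 count over the 6 libraries. All 10 markers of mature DCs were lower in PBS pDCs, at 1625 to 2138, 768 to 880 and 5517 to 6855 CPM, and Ccl17 was at 0 in PBS pDCs. Of 7 macrophage markers in the tables, 5 were lower in PBS pDCs, at 351 to 966, 157 to 204 and 1595 to 2592 CPM, and Mertk and Fcgr1 were at 0 in PBS pDCs. Of 6 cDC1 markers, 4 were lower in PBS pDCs, at 139 to 150, 82.9 to 90.2 and 542 to 592 CPM, and Batf3 was at 0 in PBS pDCs. All 7 B cell markers were higher in PBS pDCs, at 667 to 759, 765 to 805 and 16.9 to 17.9 CPM, and Ms4a1, Pax5 and Blk were among those at 0 in Sirpa+ DCs. T cell markers summed to 558 to 701, 555 to 611 and 159 to 161 CPM, 3 of 9 were higher in PBS pDCs, and Cd3g and Ptcra were at 0 in all libraries. Thymic epithelial markers summed to 42.9 to 54.8, 6.38 to 23.1 and 135 to 142 CPM, with 1 of 6 lower in PBS pDCs and Foxn1 at 0 in all libraries. Between YG+ pDCs and PBS pDCs, the median log2 fold changes of tested markers were 3.13 (macrophage), 1.39 (mature DC), 0.79 (cDC1) and 0.48 (Sirpa+ conventional DC). They were 1.06 (thymic epithelial, 1 gene), 0.08 (T cell), -0.03 (B cell) and -0.19 (pDC). None of these markers was called there, where 0% of all genes were. The part of these cells in the differences between pDCs and Sirpa+ DCs, or between the pDC groups, was not tested.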

How the data were processed

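RNA from 6 libraries, sorted on a BD FACSAria III and extracted with TRIzol, was made into libraries by Ovation SoLo RNA-Seq Mouse chemistry, per the labels' protocols. The authors deposited whole-number read counts per gene symbol for each sample, with no normalisation. The submitters' processing notes name bcl2fastq 2.17 and mm10, and no source used here gives the aligner, counter, annotation or strand setting. The 5 summary lines of each file, which name no gene, stayed out of library sizes and tests.

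Counts were tested with edgeR 4.0.16 in R 4.3.3 (filterByExpr, TMM scaling, glmQLFit, glmQLFTest), all 6 libraries in 1 fit of group means with 3 residual degrees of freedom. Calls used Benjamini-Hochberg adjusted p under 0.05 over 8141 genes. The biological coefficient of variation was 33.0%. The standard error is the log2 fold change divided by the square root of its F value. CPM used the TMM-scaled library sizes of the fit, which sum over tested genes. Replicates differed by more than counting noise (chi-square per degree of freedom 2.52, 9.20 and 4.70 in YG+ pDCs, PBS pDCs and Sirpa+ DCs), so none repeated the counts of the other. This does not tell separate animals from repeated libraries of the same cells.

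GENCODE M21 (GRCm38) gave exon lengths and coordinates for 21737 of 23420 symbols (92.8%), and RefSeq the promoters. Named were all called genes, otherwise the 2 of each role with the highest mean level, and pathway genes called in a comparison, up to 5 per list. Some genes that this rule takes are left out of the text. Members, lists and rules were chosen with earlier results of these data known. Alternatives were DESeq2 1.42.0, limma-voom (limma 3.58.1), DESeq2's size factors in edgeR, a 10 CPM filter or none, a replicate block, only the 4 libraries compared, leaving out each library, genes with no opposite-strand exon, and removal of Rn45s, Malat1, Tsix and Xist.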

Additional observations from a re-analysis of the deposited data

How the results depend on the processing

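The called listed genes kept their direction under all 15 alternatives, and the called pathway genes under each alternative that gave them a value. Of the 25 tested genes, the number lower in PBS pDCs than in Sirpa+ DCs was 6, and it became 2 with DESeq2, 2 with limma-voom, 3 in a fit of the 4 libraries compared, and 0 to 6 when 1 library was left out. Over all genes, 931 calls became 580 in a fit of the 4 libraries compared and 214 to 1297 when 1 library was left out. The median log2 fold change ran from -2.25 to -0.31 in those fits, taken over the 22 to 31 listed genes that each tested. For YG+ pDCs against Sirpa+ DCs, the 1 call became 5 among the 34 listed genes fitted without a filter. It became 10 among the 26 tested in a fit of the 4 libraries compared, where 18.7% of all genes were called. The number also rose with other size factors, limma-voom, genes with no opposite-strand exon, and removal of Rn45s, Malat1, Tsix and Xist. No share over all genes is given for these fits, and nothing was read from their calls. Leaving out 1 library moved the number as well. Over all genes, 583 calls became 894 without a filter, 1480 in a fit of the 4 libraries compared and 69 to 1487 when 1 library was left out. For YG+ pDCs against PBS pDCs, 0 calls over all genes became 141 without a filter, 111 with DESeq2 and 0 to 870 when 1 library was left out (870 without PBS pDC replicate 2), and 0 listed genes were called in each of these fits. The median over the listed genes tested in each fit ran from -0.0063 to 0.84. The cause was not tested. A fit that leaves 1 library in a group assumes that it varies like the others. Replicate numbers are in the labels, and a number alone does not say whether same-numbered libraries share mice. The differences of replicate 1 from replicate 2 correlated at 0.30 between PBS pDCs and Sirpa+ DCs. For YG+ pDCs the correlation was -0.12 with PBS pDCs and -0.10 with Sirpa+ DCs. Whether the PBS libraries are paired was not tested. With a replicate block, the listed genes called in each comparison were called again, and Oasl2 was added in PBS pDCs against Sirpa+ DCs. None was called between the pDC groups. The share over all genes in that fit is not given, and nothing was read from its calls. The tested listed genes had 43 to 464 counts over 6 libraries.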
